A study of Homo sapiens with 9 samples.

Results

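Fatty acid synthesis and desaturation was followed through 10 genes in Huh-7 cells and in 2 Huh-7 clones that lack a protein needed for lipoprotein secretion. The genes were those named SREBF1, FASN, ACACA, ACACB, ACLY, ACSS2, SCD, ELOVL6, FADS1 and FADS2, and each had 1 entry among the 58735 genes of the count and FPKM tables. Huh-7 is a human hepatoma cell line, and the unedited cells (labelled WT) were the controls. Ako-3 is a Huh-7 clone with an APOB knock out, and Mko-3 is a Huh-7 clone with an MTTP knock out, both made with CRISPR/Cas9. APOB encodes apolipoprotein B, the structural protein of secreted very low density lipoproteins, and MTTP encodes the large subunit of the microsomal triglyceride transfer protein, which loads apolipoprotein B with lipid. Each group had 3 libraries labelled as biological replicates, 9 in all. The cells of all groups were grown with fetal bovine serum to near confluence and then kept overnight in serum-free medium before RNA was taken, so all values describe serum-deprived cells. Each knockout is 1 clone and both were set against the same 3 control libraries, so that the effect of the edited gene and other differences between a clone and its parent line cannot be told apart. The labels name no sequencing batch, so a batch that goes with a group, such as Mko-3, cannot be told apart from that group.

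In the liver, surplus carbon is turned into fat by de novo lipogenesis. ACLY makes cytosolic acetyl-CoA from citrate and ACSS2 makes it from acetate, the acetyl-CoA carboxylases ACACA and ACACB turn it into malonyl-CoA, and FASN builds palmitate from these units. ELOVL6 elongates palmitate to stearate, SCD introduces the double bond of oleate and palmitoleate, and FADS1 and FADS2 are the front-end desaturases that make polyunsaturated fatty acids. SREBF1 encodes SREBP-1, the transcription factor that is best known for switching these genes on, and oleate made by SCD is a favoured substrate for the triglycerides that lipoproteins carry out of the hepatocyte.

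The knocked-out genes were checked first. APOB was listed at 83.6 to 94.6 FPKM (fragments per kilobase of gene, scaled to library size, as deposited by the authors) in Ako-3 libraries against 179 to 258 in controls and 208 to 227 in Mko-3 libraries. MTTP was at 15.3 to 16.6 FPKM in Mko-3 libraries against 111 to 121 in controls and 99.3 to 110 in Ako-3 libraries. The libraries held 14638727 to 20179760 counts on genes, and the 10 genes had between 390 counts (ACACB in Mko-3 replicate 3) and 77415 counts (SCD in Ako-3 replicate 2). All 8 hepatocyte markers, ALB and HNF4A among them, were above 1 FPKM in every group. Their summed level was 4861 to 5020 FPKM in controls, 5558 to 5795 in Ako-3 and 4800 to 5013 in Mko-3 libraries. Of 10 markers of fibroblasts, endothelial and blood cells, 8 were under 1 FPKM in every control and Ako-3 library and 7 in every Mko-3 library. The summed level of these 10 was 13.3 to 15.7, 20.2 to 20.5 and 11.6 to 12.2 FPKM, mostly from PECAM1 and CD14. Mitochondrial genes took 5.52% to 6.17% of the counts in controls, 7.06% to 7.4% in Ako-3 and 5.75% to 5.82% in Mko-3 libraries. Their part in the values below, and that of the marker levels, was not tested. In such bulk RNA, fewer expressing cells and less RNA per cell cannot be told apart.

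The genes lie on 6 chromosomes of the hg38 build, as the files give them. Chromosome 17 holds SREBF1, ACACA, ACLY and FASN, each on the minus strand. SREBF1 runs from 17810399 to 17837002, ACACA from 37084988 to 37406818, ACLY from 41866908 to 41930542 and FASN from 82078333 to 82098332. ACACB lies on chromosome 12 at 109116595 to 109268226, ACSS2 on chromosome 20 at 34872146 to 34927962 and SCD on chromosome 10 at 100347124 to 100364834, all on the plus strand. ELOVL6 lies on the minus strand of chromosome 4 at 110045846 to 110199199. FADS1 and FADS2 overlap on opposite strands of chromosome 11, FADS1 from 61799625 to 61829318 and FADS2 from 61792980 to 61867354, and in the GENCODE release 44 annotation their exons share 490 bases, 4.79% of the exonic bases of FADS1 and 4.64% of those of FADS2. Exons of SREBF1 share 556 bases, 6.75%, with RAI1 on the other strand. The strand setting of the counting is not given in the sources used here, so reads from these shared bases could not be assigned to a strand.

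RefSeq promoter windows (build GRCh38.p14) were found for 9 of the 10 genes, all but FASN. The promoters of SREBF1, the regulator, of ACSS2 and FADS2, the genes that differed most from controls, and of SCD, the most abundant of the 10 transcripts, are shown as the 250 bases before a RefSeq start site, read 5′ to 3′ on the strand of the gene. Capitals mark CCAAT and GGGCGG, the core letters of the NF-Y and Sp1 motifs, on either strand (ATTGG and CCGCCC are the same motifs read on the other strand). NF-Y and Sp1 are known partners of SREBP at lipogenic promoters. ACSS2 and FADS2 each have 2 windows, of which 1 is shown, so the motifs seen depend on that choice. The window of ACSS2 that is not shown holds GGGCGG and no CCAAT, and that of FADS2 holds neither.
SREBF1, chr17:17836987-17837236, minus strand: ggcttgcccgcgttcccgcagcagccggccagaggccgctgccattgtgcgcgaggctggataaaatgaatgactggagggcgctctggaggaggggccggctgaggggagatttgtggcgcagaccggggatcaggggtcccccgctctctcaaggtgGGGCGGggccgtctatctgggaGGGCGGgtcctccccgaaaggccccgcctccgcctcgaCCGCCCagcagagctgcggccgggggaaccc
ACSS2, chr20:34874739-34874988, plus strand: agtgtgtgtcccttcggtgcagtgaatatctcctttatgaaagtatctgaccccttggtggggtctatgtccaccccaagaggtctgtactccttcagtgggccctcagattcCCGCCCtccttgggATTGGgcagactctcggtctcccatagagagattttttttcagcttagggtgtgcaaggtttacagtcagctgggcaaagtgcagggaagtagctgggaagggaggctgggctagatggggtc
SCD, chr10:100346983-100347232, plus strand: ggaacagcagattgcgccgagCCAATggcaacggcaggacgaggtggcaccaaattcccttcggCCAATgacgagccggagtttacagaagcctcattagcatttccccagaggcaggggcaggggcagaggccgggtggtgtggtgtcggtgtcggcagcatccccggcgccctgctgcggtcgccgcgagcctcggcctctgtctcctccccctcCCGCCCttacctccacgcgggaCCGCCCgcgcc
FADS2, chr11:61816154-61816403, plus strand: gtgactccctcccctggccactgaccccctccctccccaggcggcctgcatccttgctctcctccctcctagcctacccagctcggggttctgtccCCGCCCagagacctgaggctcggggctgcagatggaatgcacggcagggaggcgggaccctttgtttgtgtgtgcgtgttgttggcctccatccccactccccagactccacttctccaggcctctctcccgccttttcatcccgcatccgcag
The windows searched also held the 50 bases after each start, and these 9 genes had 15 of them. GGGCGG was found in windows of all 9 genes, in 12 of the 15 windows, and 45.0% of the 35116 windows of all genes hold it. CCAAT was found for 6 genes, in 8 of the 15 windows, against 34.6% of all windows. The sterol regulatory element letters TCACNCCAC were in 0 of the 15 windows and in 1.13% of all windows, and the E-box CACGTG, the core of the carbohydrate response element, was in 0 of the 15 and in 7.26% of all. These are matches of letters in short windows, and sites farther from a start were not looked for.

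The 10 genes spanned a wide range of levels. SCD was the most abundant in every group, at 664 ± 37.4 FPKM in controls (SD, n = 3, as for all values given so), 727 ± 9.56 in Ako-3 and 530 ± 14 in Mko-3 cells. It made up 58.7% to 65.2% of the summed FPKM of the 10 genes. FASN followed at 139 ± 29.4 FPKM in controls, and ACACB was lowest at 2.16 ± 0.129 FPKM. The summed level of the 10 genes was 975, 1143 and 1019 FPKM in the control libraries, 1200, 1184 and 1196 in Ako-3 and 888, 905 and 883 in Mko-3 libraries. The 3 groups did not overlap in this sum. As a share of all FPKM, the Ako-3 libraries (0.387% to 0.392%) lay within the range of the controls (0.355% to 0.42%), and the Mko-3 libraries (0.304% to 0.317%) lay below it.

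**Figure D1:**
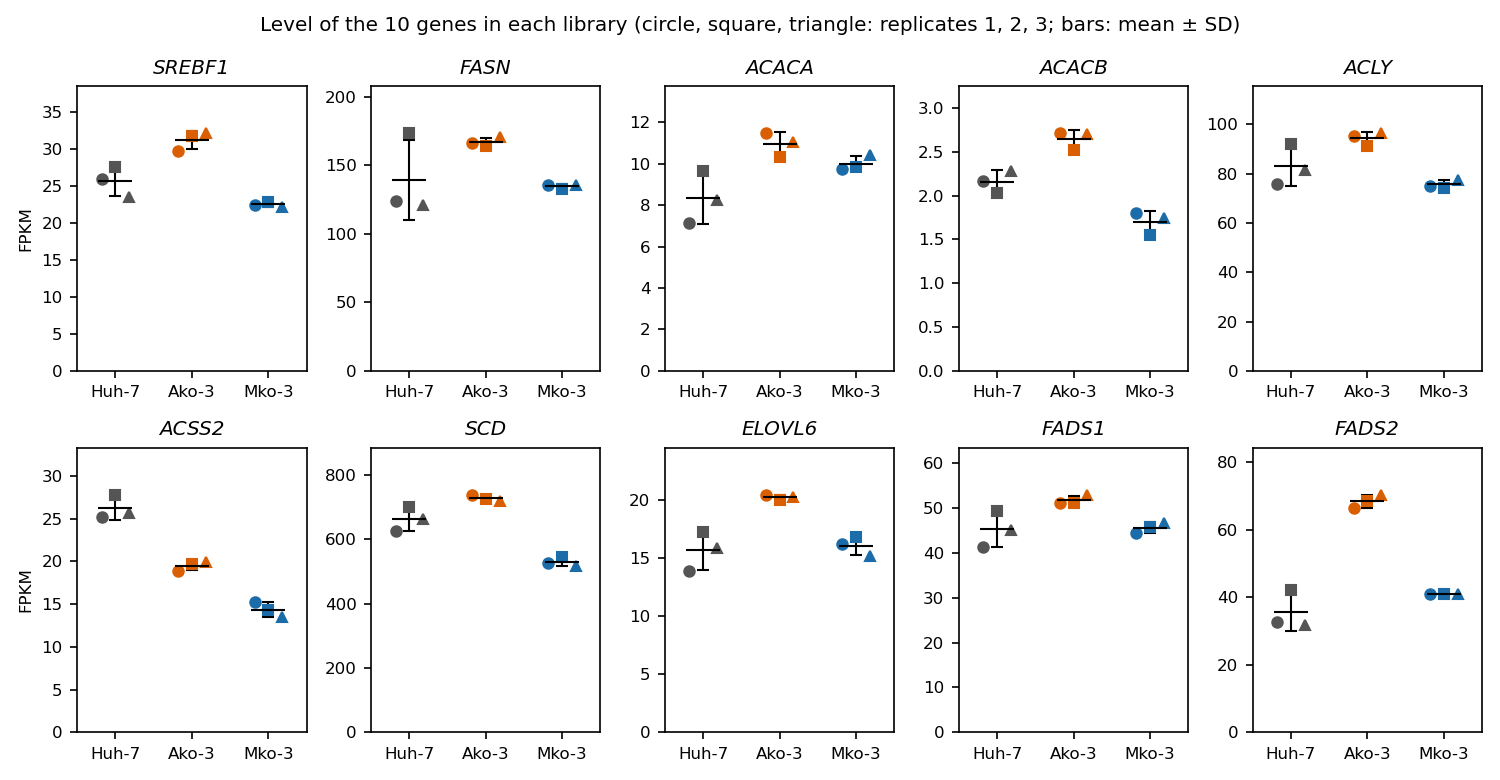
Levels of the 10 genes in FPKM (vertical axes, each from 0) in the 3 libraries of Huh-7, Ako-3 and Mko-3 cells; symbols stand for replicate numbers and bars for the mean and SD. All Ako-3 libraries lie above all Mko-3 libraries for every gene but ACACA, ACSS2 is highest in the controls, and control replicate 2 (square) is the highest control for 9 of the 10 genes.

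The control libraries differed among themselves at these genes. Control replicate 2 had the highest control level of 9 of the 10 genes, all but ACACB. Over all 15787 genes tested in the comparison of Ako-3 with controls, it was the highest control for 36.9%. It was the highest for 17 of 24 cholesterol synthesis and uptake genes (70.8%) and for 8 of 11 genes of carbon and NADPH supply (72.7%), and for 0 of 12 genes of fatty acid activation and uptake. FASN was at 173 FPKM in this library and at 124 and 121 in the other two controls. The coefficient of variation of FASN was 21.1% in controls, against 1.87% in Ako-3 and 1.33% in Mko-3 cells. Calls on the 10 genes, and counts of gene lists, that change without this library are also given without it.

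**Figure D2:**
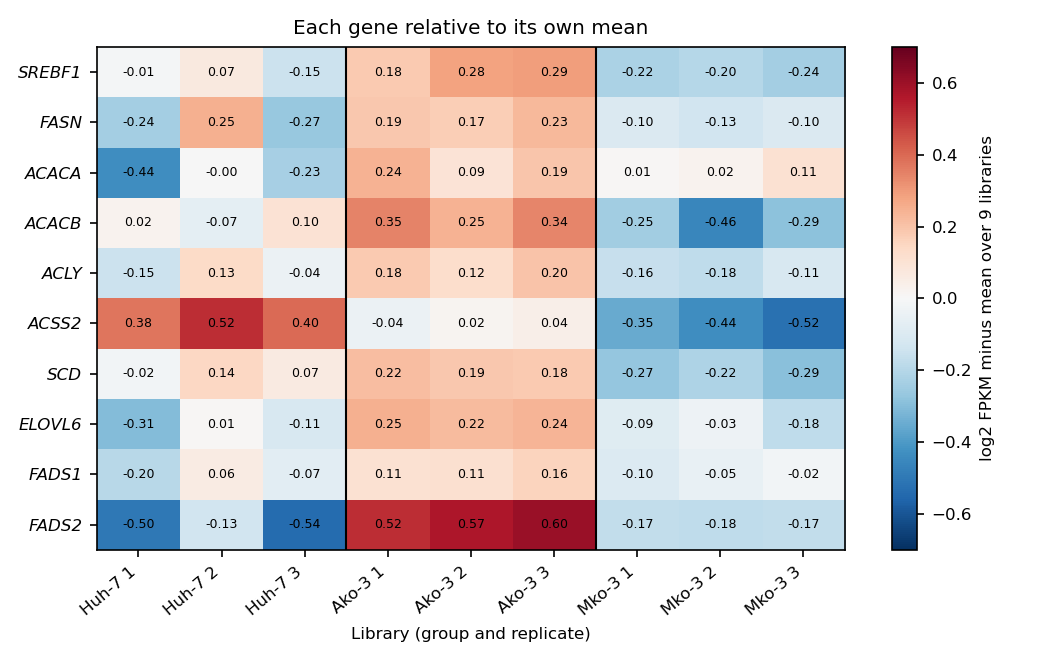
Level of each gene (rows) in each of the 9 libraries (columns) as log2 FPKM minus the mean of that gene over the 9 libraries, in red where above and blue where below. FADS2 stands out in the Ako-3 libraries at 0.52 to 0.60, ACSS2 in the controls at 0.38 to 0.52, and Huh-7 replicate 2 is higher than the other controls in every row but ACACB.

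The first comparison set Ako-3 cells against controls. A gene was said to rise or fall where edgeR's quasi-likelihood test gave it an adjusted p (Benjamini-Hochberg, over all genes tested) no greater than 0.05. Of the 10 genes, 7 rose in Ako-3 cells (SREBF1, ACACA, ACACB, ACLY, ELOVL6, FADS1 and FADS2), ACSS2 fell, and FASN and SCD did not pass. Among all tested genes 25.5% were higher and 24.4% lower, as a background to these counts. The median log2 fold change of the 10 genes was 0.27, where that of all genes was -0.0087 and the median size of a change of any gene, up or down, was 0.315. None of the 10 also reached an absolute log2 fold change of 1 with edgeR, DESeq2 or limma in all 6 libraries, a pair of thresholds that 8.52% of all genes passed with edgeR. For 7 genes all Ako-3 libraries lay above all controls, and for ACSS2 all lay below, where 29.3% and 28.4% of all tested genes did so. Without control replicate 2 all 10 genes passed, 9 higher and ACSS2 lower, and FADS2 passed both thresholds. That library was the highest control for 9 of the 10 genes, so leaving it out lowers their control levels. Without control replicate 1, FASN (edgeR adjusted p = 0.408), SCD (0.196), ACLY (0.148) and FADS1 (0.0946) did not pass. Without control replicate 3, FASN (0.323), SCD (0.081) and ACLY (0.072) did not.

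FADS2, which encodes the delta-6 desaturase that opens polyunsaturated fatty acid synthesis, changed most. It was at 66.3, 68.6 and 70.3 FPKM in the Ako-3 libraries and at 32.7, 42.2 and 31.9 in the controls. The groups did not overlap, and the level was 1.92-fold higher in Ako-3 cells (log2 fold change 0.94, SE 0.0858, edgeR adjusted p = 3.96e-07). Without control replicate 2 the log2 fold change was 1.08, and without control replicate 1 or 3 it was 0.88 or 0.87. FADS1, the delta-5 desaturase encoded beside it, was at 51.0, 51.1 and 52.8 FPKM against 41.3, 49.3 and 45.0, a rise of 1.14-fold (log2 fold change 0.19, edgeR adjusted p = 0.0191). The ratio of FADS1 to FADS2 was therefore lower, at 0.769, 0.745 and 0.752 in Ako-3 libraries against 1.26, 1.17 and 1.41 in controls. FADS1 no longer passed without control replicate 1 (edgeR adjusted p = 0.0946), without Ako-3 replicate 3 (0.0791) or with library totals as the scaling (0.224).

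SREBF1 rose 1.21-fold in Ako-3 cells, from 26.0, 27.6 and 23.6 to 29.8, 31.8 and 32.2 FPKM (log2 fold change 0.28, SE 0.0653, edgeR adjusted p = 0.00133), and all Ako-3 libraries lay above all controls. Both acetyl-CoA carboxylase genes rose. ACACA, the cytosolic carboxylase that supplies FASN, was at 11.5, 10.3 and 11.1 FPKM against 7.15, 9.65 and 8.23 in controls, 1.31-fold higher (edgeR adjusted p = 0.00118). ACACB, the mitochondrial form whose malonyl-CoA holds back fatty acid import for oxidation, was at 2.71, 2.52 and 2.70 FPKM against 2.16, 2.03 and 2.29, 1.22-fold higher (edgeR adjusted p = 0.00688). The call on ACACB was lost with library totals as the scaling (adjusted p = 0.0597) and with limma on log2(FPKM + 1) (0.0501) or log2(FPKM + 0.1) (0.0546). ELOVL6 was at 20.4, 20.0 and 20.3 FPKM against 13.9, 17.3 and 15.9, 1.29-fold higher (edgeR adjusted p = 0.000278). For ACACA, ACACB and ELOVL6 the groups did not overlap.

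The 2 most abundant transcripts differed less. SCD was at 738, 724 and 720 FPKM in Ako-3 libraries and at 627, 702 and 664 in controls. The groups did not overlap, but the log2 fold change of 0.13 (95% interval 0.0162 to 0.239 before adjustment) did not pass (edgeR adjusted p = 0.0679). It passed without control replicate 2, at a log2 fold change of 0.17 (edgeR adjusted p = 0.00786), and not without control replicate 1 (0.196) or 3 (0.081). FASN was at 166, 164 and 171 FPKM in Ako-3 libraries, below the highest control and above the other two. Its log2 fold change of 0.26 (SE 0.127) did not pass (edgeR adjusted p = 0.128), while without control replicate 2 it was 0.44 (edgeR adjusted p = 4.03e-08). That library held the highest control level of FASN, so leaving it out raised the change and narrowed the spread. Without control replicate 1 or 3 the log2 fold change was 0.18 (edgeR adjusted p = 0.408) or 0.17 (0.323).

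The 2 sources of cytosolic acetyl-CoA went opposite ways. ACSS2 fell to 74.3% of its control level, from 25.2, 27.8 and 25.6 FPKM to 18.9, 19.7 and 20.0 (log2 fold change -0.43, SE 0.0646, edgeR adjusted p = 1.47e-05), with no overlap. ACLY was at 95.2, 91.4 and 96.3 FPKM against 75.7, 92.1 and 81.6 in controls, so that the groups overlapped. Its log2 fold change of 0.18 passed narrowly (edgeR adjusted p = 0.0308) and did not pass in 4 of the 6 fits that left out 1 library (without control replicate 1 or 3, or Ako-3 replicate 1 or 3, with adjusted p from 0.072 to 0.148). Nor did ACLY pass with library totals as the scaling (edgeR adjusted p = 0.297) or with limma on log2(FPKM + 1) (0.0658) or log2(FPKM + 0.1) (0.065). The ratio of ACSS2 to ACLY was 0.207 ± 0.00858 in Ako-3 and 0.316 ± 0.0158 in control cells, and the groups did not overlap.

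The second comparison set Mko-3 cells against controls. Of the 10 genes, 4 fell in Mko-3 cells (SREBF1, ACACB, ACSS2 and SCD), ACACA rose, and FASN, ACLY, ELOVL6, FADS1 and FADS2 did not pass. Over all tested genes 27.1% were lower and 26.9% higher, and no test compared the shares among these 10 genes with them. The median log2 fold change of the 10 genes was -0.10, against -0.0108 over all genes. None reached both thresholds with edgeR, DESeq2 or limma, which 11.0% of all genes passed with edgeR. All Mko-3 libraries lay below all controls for 4 genes and above them for 1, where 29.8% and 30.9% of all tested genes did so. Without control replicate 2, 3 genes rose (ACACA, FASN and FADS2) and 4 fell.

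ACSS2 changed most. It was at 15.2, 14.3 and 13.5 FPKM in Mko-3 libraries, against 25.2, 27.8 and 25.6 in controls, which is 54.4% of the control level (log2 fold change -0.88, SE 0.0682, edgeR adjusted p = 9.37e-10). The desaturase SCD was at 527, 546 and 519 FPKM against 627, 702 and 664, or 79.2% (log2 fold change -0.34, SE 0.0563, edgeR adjusted p = 3.26e-05). ACACB was at 1.80, 1.55 and 1.75 FPKM against 2.16, 2.03 and 2.29, or 77.8% (edgeR adjusted p = 0.00214). For these 3 genes the groups did not overlap and the fall passed under every alternative run.

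SREBF1 was at 22.5, 22.9 and 22.2 FPKM in Mko-3 libraries against 26.0, 27.6 and 23.6 in controls, 86.9% of the control level (log2 fold change -0.20, edgeR adjusted p = 0.0111). The call was lost without Mko-3 replicate 1 (adjusted p = 0.055) or 3 (0.0721). ACACA, by contrast, was at 9.74, 9.84 and 10.4 FPKM, above all controls, and rose 1.19-fold (edgeR adjusted p = 0.0178). That call was lost without control replicate 1 (0.0751), control replicate 3 (0.0732) or Mko-3 replicate 3 (0.0668). It was also lost with library totals as the scaling (edgeR adjusted p = 0.0675) and with limma on log2(FPKM + 1) (0.0633) or log2(FPKM + 0.1) (0.0606). With ACACA higher and ACACB lower, the ratio of the cytosolic to the mitochondrial carboxylase transcript was 5.42, 6.35 and 5.96 in Mko-3 libraries, against 3.31, 4.76 and 3.60 in controls.

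FASN was at 136, 133 and 136 FPKM in Mko-3 libraries, inside the range of the controls. Its log2 fold change was -0.06 (95% interval -0.318 to 0.198, edgeR adjusted p = 0.732), and without control replicate 2 it was 0.14 (edgeR adjusted p = 0.0184), so its direction turns on that library. FADS2 was at 41.1, 40.9 and 41.1 FPKM with a log2 fold change of 0.19 (edgeR adjusted p = 0.0665), and without control replicate 2 it was 0.34 (edgeR adjusted p = 2.34e-06). Without control replicate 1 or 3 FADS2 did not pass (edgeR adjusted p = 0.232 and 0.266). ACLY, at 75.1, 74.1 and 77.6 FPKM, had a log2 fold change of -0.15 (edgeR adjusted p = 0.062), and passed without control replicate 1 at -0.21 (edgeR adjusted p = 0.00483). ELOVL6 (16.2, 16.8 and 15.2 FPKM) and FADS1 (44.3, 45.7 and 46.7 FPKM) had intervals of the log2 fold change from -0.122 to 0.17 and from -0.126 to 0.124.

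**Figure D3:**
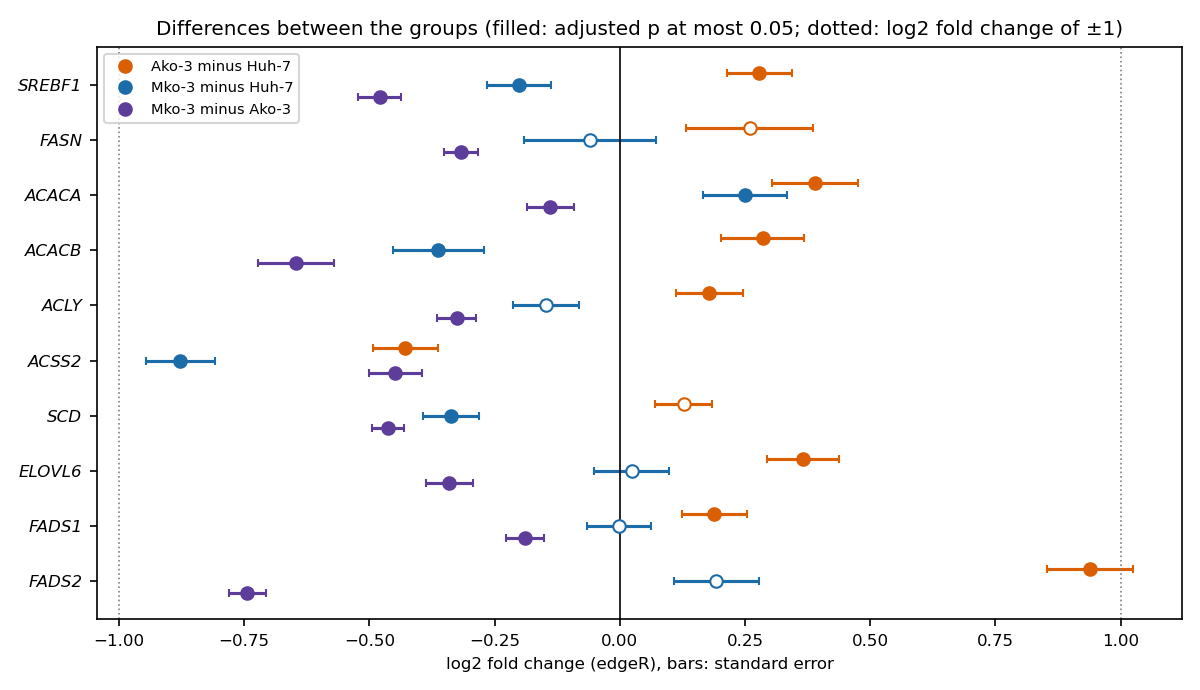
Log2 fold change of each gene (horizontal axis; bars are 1 standard error) in the 3 comparisons, with filled points at an edgeR adjusted p of at most 0.05 and dotted lines at ±1. Ako-3 against Huh-7 lies right of 0 for 9 genes, Mko-3 against Ako-3 lies left of 0 for all 10, and no point passes a dotted line.

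The third comparison set the clones against each other, without the control libraries. All 10 genes were lower in Mko-3 than in Ako-3 cells, where 20.6% of all tested genes were lower and 21.1% higher. The 10 genes were chosen with earlier results of these data known, so this count is not independent of that choice. The differences ran from 1.10-fold (ACACA) to 1.68-fold (FADS2), with a median log2 fold change of -0.39, where the median size of a change of any gene was 0.207. For 9 genes all Mko-3 libraries lay below all Ako-3 libraries, which held for 23.6% of all genes. ACACA was the exception, as its highest Mko-3 library (10.4 FPKM) passed its lowest Ako-3 library (10.3 FPKM). None reached both thresholds with edgeR, DESeq2 or limma, which 5.73% of all genes passed with edgeR. The standard errors were smaller than in the comparisons with controls, at 0.0319 for SCD and 0.0369 for FADS2 against 0.0568 and 0.0858 in the first comparison.

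By size, FADS2 came first, at 59.7% of its Ako-3 level (log2 fold change -0.74, edgeR adjusted p = 5.31e-29). ACACB was at 63.9% (log2 fold change -0.65, edgeR adjusted p = 3.38e-11). SREBF1 was at 71.7% (log2 fold change -0.48, edgeR adjusted p = 9.32e-16), SCD at 72.5% (-0.46, 3.11e-21) and ACSS2 at 73.3% (-0.45, 3.81e-11). The remaining 5 genes were closer together. ELOVL6 was at 79.0%, ACLY at 79.8%, FASN at 80.3%, FADS1 at 87.7% and ACACA at 90.9%, with log2 fold changes of -0.34, -0.33, -0.32, -0.19 and -0.14. ACACA did not pass without Ako-3 replicate 1 (edgeR adjusted p = 0.102) or without Mko-3 replicate 1 (0.0889). Nor did it pass with limma on log2(FPKM + 1) (adjusted p = 0.112) or log2(FPKM + 0.1) (0.109). With all 9 libraries in 1 fit, whose spread includes that of the controls, FASN (edgeR adjusted p = 0.0892) and ACACA (0.192) did not pass and the other 8 genes did.

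The order of the groups by mean FPKM fell into 3 patterns. Mko-3 was lowest and Ako-3 highest, with controls between, for SREBF1, FASN, ACACB, ACLY and SCD. Of these, SREBF1 and ACACB passed between every pair of neighbours, SCD and ACLY between 1 pair of neighbours only, and FASN between the outer groups only. Without control replicate 2, SCD passed between both pairs of neighbours, and FASN had its lowest level in controls, below Mko-3 cells. Controls were lowest and Ako-3 highest for ACACA, ELOVL6, FADS1 and FADS2, and for ELOVL6, FADS1 and FADS2 the difference between controls and Mko-3 cells did not pass. The means of controls and Mko-3 cells were nearly equal for FADS1 (45.2 and 45.6 FPKM) and ELOVL6 (15.7 and 16.1 FPKM). For FADS1 the edgeR log2 fold change was -0.00096, so no order of controls and Mko-3 cells can be given for these genes. FADS2 passed there with DESeq2 (adjusted p = 0.0412), with all 9 libraries in 1 fit (0.0331) and without control replicate 2. ACSS2 alone was highest in controls, followed by Ako-3 and then Mko-3 cells, and every pair passed. The edgeR adjusted p-values behind these orders are those given above.

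Ratios within a library do not depend on how libraries are scaled, and 5 were compared between 3 pairs of groups, 15 tests in all. For 3 libraries against 3 the exact two-sided permutation test cannot give a p below 0.1, and no ratio could pass 0.05. The ratio of FADS1 to FADS2 was 1.28 ± 0.123 in controls, 0.755 ± 0.0125 in Ako-3 and 1.11 ± 0.0291 in Mko-3 cells, with no overlap between any groups (exact p = 0.1 for each pair, 0.188 after Benjamini-Hochberg adjustment over the 15 tests). The ratio of ACACA to ACACB was 3.89 ± 0.768, 4.14 ± 0.0786 and 5.91 ± 0.467, higher in Mko-3 cells than in both other groups (exact p = 0.1, adjusted 0.188). Between controls and Ako-3 cells this ratio gave an exact p of 0.5 (adjusted 0.625). The ratio of ACSS2 to ACLY was 0.190 ± 0.0145 in Mko-3 cells, below all controls (exact p = 0.1, adjusted 0.188) and overlapping Ako-3 cells (exact p = 0.2, adjusted 0.3). For the steps after FASN, the ratio of ELOVL6 to FASN was 0.114 ± 0.0159, 0.121 ± 0.00214 and 0.119 ± 0.00729 (exact p from 0.6 to 0.8). The ratio of SCD to FASN was 4.87 ± 0.738, 4.36 ± 0.117 and 3.94 ± 0.156, with an exact p of 0.1 (adjusted 0.188) between the clones only.

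**Figure D4:**
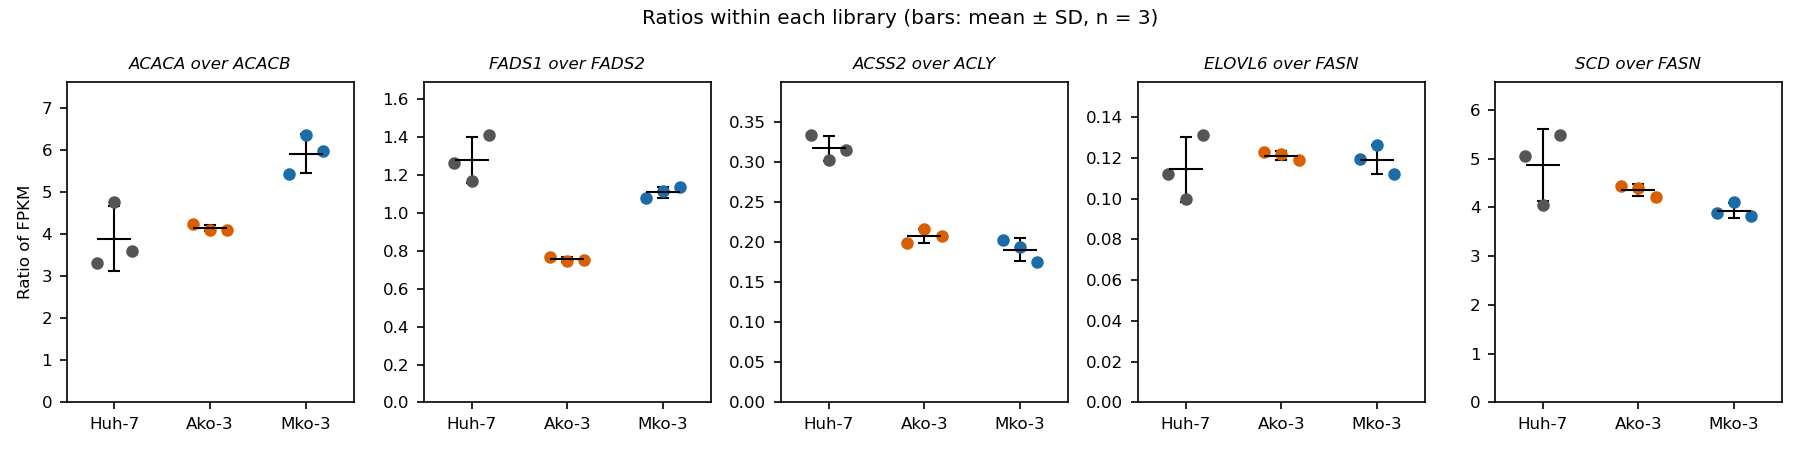
Ratios of FPKM between pairs of the 10 genes within each library (vertical axes from 0; bars are the mean and SD, n = 3). FADS1 over FADS2 is lowest in Ako-3 cells at 0.755 and ACACA over ACACB is highest in Mko-3 cells at 5.91, while ELOVL6 over FASN overlaps between all groups.

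Genes of the surrounding pathways were counted from 9 lists. As a background to all these counts, 25.5% of all tested genes rose and 24.4% fell in Ako-3 cells, and 26.9% rose and 27.1% fell in Mko-3 cells. Between the clones 21.1% were higher and 20.6% lower in Mko-3 cells. No test compared the lists with these shares or with the 10 genes. The 8 hepatocyte markers were counted in the same way. In Ako-3 cells 6 of them rose and 0 fell (6 and 1 without control replicate 2), and in Mko-3 cells 3 rose and 2 fell. Set against Ako-3, Mko-3 cells had 2 markers higher and 6 lower. Their log2 medians were 0.473, 0.0722 and -0.439 in that order, against 0.27, -0.10 and -0.39 for the 10 genes. Whether the 10 genes changed apart from these markers was not tested. The list of SREBP and lipogenic control held 19 tested genes. In Ako-3 cells 2 of them rose and 9 fell, in Mko-3 cells 5 rose and 7 fell, and between the clones 6 were higher and 7 lower in Mko-3 cells. Without control replicate 2, 3 rose and 9 fell in Ako-3 cells. MLXIPL, which encodes ChREBP, the glucose-responsive activator of lipogenic genes, was at 13.3 ± 1.18 FPKM in controls, 8.55 ± 0.445 in Ako-3 and 3.06 ± 0.429 in Mko-3 cells. It fell in both clones (log2 fold changes -0.64 and -2.13, edgeR adjusted p = 1.89e-06 and 7.32e-13) and was lower in Mko-3 than in Ako-3 cells (-1.49, 1.7e-25). MBTPS2, the site-2 protease that releases active SREBP, fell in Ako-3 cells (log2 fold change -0.82, edgeR adjusted p = 2.16e-08), and MBTPS1, the site-1 protease, rose in Mko-3 cells (0.57, 2.53e-07). Each protease moved the same way in the other clone, MBTPS2 by -0.26 in Mko-3 (edgeR adjusted p = 0.00357) and MBTPS1 by 0.34 in Ako-3 cells (0.00022). PRKAB2, a subunit of the AMP-activated kinase, which inhibits the acetyl-CoA carboxylases, fell in both (-0.66 and -0.88, edgeR adjusted p = 5.09e-07 and 1.86e-09). PRKAA2, another subunit of this kinase, fell in Ako-3 cells (log2 fold change -0.61, edgeR adjusted p = 5.35e-05) but was higher in Mko-3 than in Ako-3 cells (0.85, 1.3e-13). It was at 3.12 ± 0.215 FPKM in controls, 2.04 ± 0.278 in Ako-3 and 3.71 ± 0.307 in Mko-3 cells.

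Of 11 genes that supply carbon and NADPH, 4 rose and 2 fell in Ako-3 cells, 4 rose and 5 fell in Mko-3 cells, and 2 were higher and 7 lower in Mko-3 than in Ako-3 cells. ME1, the cytosolic malic enzyme that makes NADPH, was at 21.9 ± 0.285 FPKM in controls, 22.2 ± 1.01 in Ako-3 and 13.9 ± 0.505 in Mko-3 cells (log2 fold change of Mko-3 against controls -0.67, edgeR adjusted p = 7.55e-08). ACSS3, a mitochondrial relative of ACSS2, fell in Mko-3 cells by 1.12 on the log2 scale (edgeR adjusted p = 1.85e-10). It also fell in Ako-3 cells (log2 fold change -0.29, edgeR adjusted p = 0.00345). Of 17 partners in elongation and desaturation, 5 rose and 6 fell in Ako-3 cells, 4 rose and 7 fell in Mko-3 cells (4 and 8 without control replicate 2), and 5 were higher and 7 lower between the clones. TECR and HACD3, enzymes of the elongation cycle that ELOVL6 starts, rose in Ako-3 cells (log2 fold changes 0.49 and 0.48, edgeR adjusted p = 1.41e-06 and 3.42e-06). HACD3 also rose in Mko-3 cells (0.56, edgeR adjusted p = 2.34e-07), and TECR did not pass there (0.05, 0.493). Other genes of the list went the other way in Ako-3 cells. HSD17B12 and ELOVL5 fell there (log2 fold changes -0.46 and -0.42, edgeR adjusted p = 7.99e-05 and 1.02e-05). HACD1 and ELOVL4, both of low level, fell in Mko-3 cells, from 3.65 ± 0.247 to 0.583 ± 0.0892 FPKM and from 1.80 ± 0.271 to 0.188 ± 0.0507 FPKM. Both also fell in Ako-3 cells (log2 fold changes -0.70 and -0.69, edgeR adjusted p = 9.62e-05 and 0.0043). SCD5, the second stearoyl-CoA desaturase gene, was lower in Mko-3 than in Ako-3 cells, at 1.05 ± 0.209 against 2.72 ± 0.236 FPKM (edgeR adjusted p = 7.78e-13), the same direction as SCD.

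The cholesterol synthesis and uptake genes, the other main targets of the SREBP family, were counted next. In Ako-3 cells 7 of 24 rose and 7 fell, with a median log2 fold change of -0.0137. In Mko-3 cells 4 rose and 16 fell, with a median of -0.30, and 2 were higher and 18 lower in Mko-3 than in Ako-3 cells. Without control replicate 2 the counts were 7 and 5 in Ako-3 and 4 and 15 in Mko-3 cells. MSMO1, a sterol demethylation enzyme, was at 129 ± 3.5 FPKM in controls, 105 ± 6.49 in Ako-3 and 67.0 ± 4.69 in Mko-3 cells. It fell in both clones (edgeR adjusted p = 0.000405 and 9.21e-11). NSDHL, of the same pathway, rose in both clones (log2 fold changes 0.71 and 0.49, edgeR adjusted p = 2.83e-06 and 8.77e-05).

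Targets of the liver X receptor, a sterol-sensing activator that also switches on SREBF1, were counted as 8 genes. In Ako-3 cells 5 rose and 1 fell, in Mko-3 cells 2 rose and 4 fell, and 0 were higher and 6 lower in Mko-3 than in Ako-3 cells, with medians of 0.33, -0.63 and -0.47. ABCA1, which exports cholesterol to apolipoprotein A-I, rose in Ako-3 cells (log2 fold change 0.62, edgeR adjusted p = 6.87e-07). The sterol exporter genes ABCG5 and ABCG8 fell in Mko-3 cells to 0.61 ± 0.096 and 0.893 ± 0.266 FPKM, from 3.51 ± 0.802 and 3.14 ± 0.196, and PLTP, the phospholipid transfer protein, fell from 129 ± 6.26 to 56.6 ± 2.32 FPKM (edgeR adjusted p = 2.56e-12).

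The fates of fatty acids were counted in 4 further lists. Of 14 triglyceride synthesis genes, 4 rose and 5 fell in Ako-3 cells (4 and 7 without control replicate 2), 5 rose and 6 fell in Mko-3 cells, and 3 were higher and 8 lower in Mko-3 than in Ako-3 cells. GPAM, the first acyltransferase of glycerolipid synthesis, fell in both clones (log2 fold changes -0.51 and -0.98, edgeR adjusted p = 1.33e-06 and 1.1e-10), and DGAT1, which makes the final ester bond, was at 36.1 ± 3.43 FPKM in controls and 20.4 ± 0.919 in Mko-3 cells (edgeR adjusted p = 4.32e-09). Of 22 fatty acid oxidation genes, 7 rose and 1 fell in Ako-3 cells (6 and 3 without control replicate 2), 4 rose and 11 fell in Mko-3 cells, and 2 were higher and 15 lower between the clones. Of 12 genes of fatty acid activation and uptake, 5 rose and 5 fell in Ako-3 cells (4 and 5 without control replicate 2), 2 rose and 7 fell in Mko-3 cells (2 and 8 without it), and 2 were higher and 6 lower between the clones. ACSL4, an acyl-CoA synthetase with a preference for arachidonate, fell in Mko-3 cells by 0.62 on the log2 scale (edgeR adjusted p = 1.23e-08). It also fell in Ako-3 cells (log2 fold change -0.29, edgeR adjusted p = 0.000353). Of 9 genes of the separate mitochondrial fatty acid synthesis pathway, 3 rose and 5 fell in Ako-3 cells (4 and 5 without control replicate 2), 1 rose and 3 fell in Mko-3 cells (2 and 3 without it), and 0 were higher and 4 lower between the clones.

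**Figure D5:**
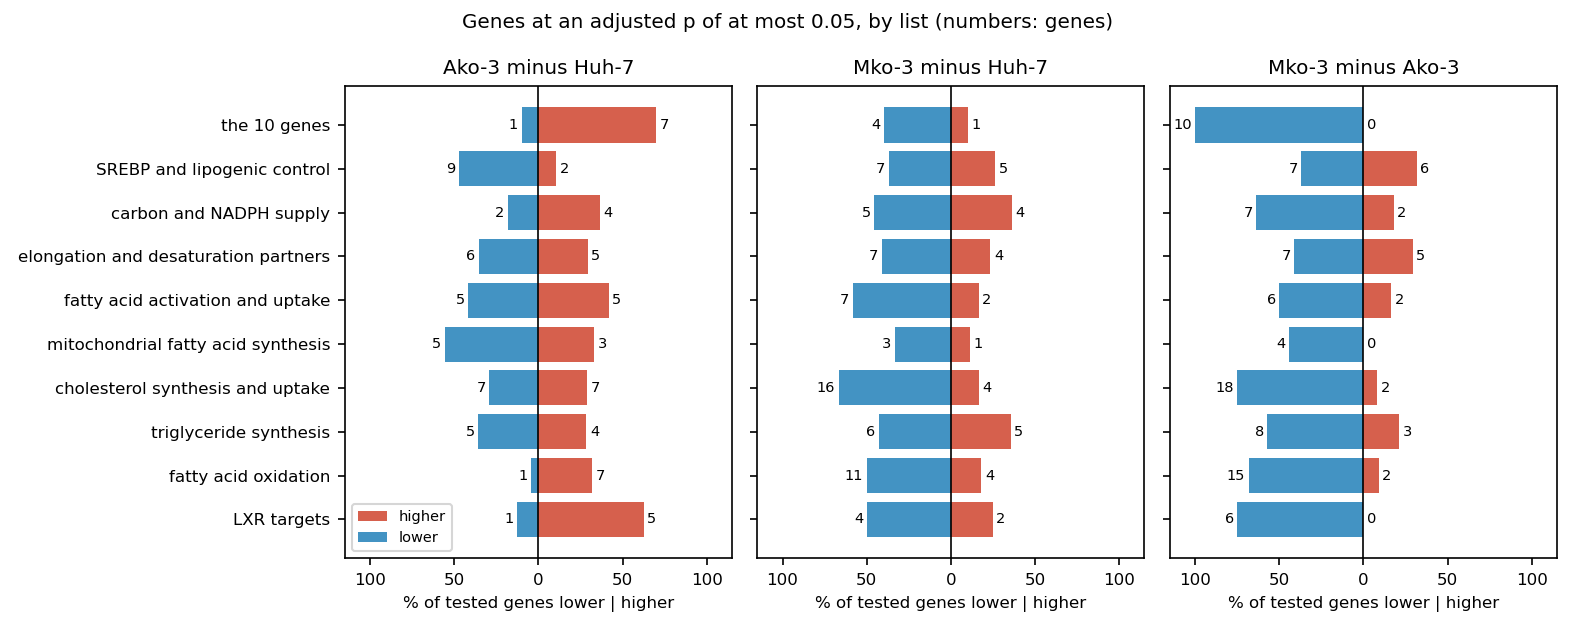
Share of the tested genes of each list at an edgeR adjusted p of at most 0.05, lower to the left and higher to the right (horizontal axis in %, numbers are genes), in the 3 comparisons. The 10 genes are 7 higher and 1 lower in Ako-3 against Huh-7 and 10 lower in Mko-3 against Ako-3, and the cholesterol list is 18 lower in the latter.

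Genes that lie near the 10 on the chromosome were also examined. Within 5 Mb of ELOVL6, 35 other tested genes had median log2 fold changes of 0.119 in Ako-3 and -0.156 in Mko-3 cells, and of -0.234 between the clones, where 18 of them were lower and 4 higher. The value of ELOVL6 itself between the clones was -0.34. Around SREBF1 the median between the clones was -0.207 (31 of 78 genes lower, 6 higher), and around ACSS2 it was -0.161 (47 of 100 lower, 7 higher), where SREBF1 and ACSS2 themselves were at -0.48 and -0.45. Around FADS2, 91 of 213 genes rose and 29 fell in Ako-3 cells, with a median of 0.171 against 0.94 for FADS2. The same counts and median were found around FADS1, whose own value of 0.19 was close to that median. Between the clones the median around both genes was -0.0257. Over all tested genes 25.5% rose and 24.4% fell in Ako-3 cells, and 20.6% were lower and 21.1% higher between the clones. For SCD, FASN, ACACA and ACLY the medians between the clones lay between -0.0256 and 0.0599. The part of the neighbourhood in the values of these genes was not tested.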

How the data were processed

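Gene expression was analysed in Huh-7, Ako-3 and Mko-3 cells, 3 libraries each. Messenger RNA was selected with poly-T beads and sequenced. Per the submitters' processing notes, HISAT2 2.0.5 and featureCounts 1.5.0-p3 were used, and the positions in the files are on hg38. The authors deposited raw counts per gene without normalization, and FPKM, which from the values are the counts per base of gene, scaled in proportion to DESeq2 size factors computed on the 9 libraries together. No column was left unassigned. The 10 genes and the gene lists were chosen with earlier results of these data known, the lists from general knowledge of the pathways. The genes named from each list were up to 3 with the smallest adjusted p in a comparison. HSD17B12 and ELOVL5 were named besides these, as genes of their list that went the other way. The paper's lipid, protein and qRT-PCR experiments were not analysed here.

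Counts of the 6 libraries of each comparison were tested with edgeR 4.0.16 in R 4.3.3 (TMM scaling, genes kept by filterByExpr with its minimum count set to 10, and the quasi-likelihood F test with robust dispersions), with adjusted p-values over all 15787, 15745 and 15528 genes tested. The standard error is the size of the log2 fold change divided by the square root of F. Intervals at 95% come from that standard error and are not adjusted. Ratios of FPKM were compared by exact two-sided permutation tests. Promoter sequences came from RefSeq and overlaps of exons from GENCODE release 44. On simulated counts, 99.5%, 98% and 99.5% of 200 genes changed by 1.5 on the log2 scale were recovered in the 3 comparisons, which says nothing on smaller changes such as most of those given here. Alternatives were DESeq2 1.42.0, RLE size factors, library totals, other filters, 1 fit of all 9 libraries, a replicate block, leaving out each library, and limma 3.58.1 on log2(FPKM + 1) and log2(FPKM + 0.1). The labels call the libraries biological replicates and do not say that they came from separate clones, so the p-values measure the spread between libraries of the same cells. Within groups, no 2 libraries agreed within sampling noise (chi-square per degree of freedom from 2.43 to 8.88), so none was taken as a duplicate.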

Additional observations from a re-analysis of the deposited data

Results flagged for a closer look

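All 10 genes were singled out for the same reason, a direct test of Mko-3 against Ako-3 cells in which the 2 clones differed. The log2 fold changes of Mko-3 against Ako-3 cells were -0.48 for SREBF1, -0.32 for FASN, -0.14 for ACACA, -0.65 for ACACB, -0.33 for ACLY, -0.45 for ACSS2, -0.46 for SCD, -0.34 for ELOVL6, -0.19 for FADS1 and -0.74 for FADS2. The edgeR adjusted p-values ran from 5.31e-29 (FADS2) to 0.0146 (ACACA). ACSS2 was lower than in controls in both clones, whereas SREBF1 and ACACB were higher than in controls in Ako-3 and lower in Mko-3 cells. Each clone is a single clone, so a difference between clones and a difference between the edited genes cannot be told apart.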

How the results depend on the processing

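In Ako-3 against control cells, 8 genes passed and 7 were higher, and with library totals alone as the scaling these counts were 5 and 4. The number passing was 10 without a filter on low counts, 9 with DESeq2 and with all 9 libraries in 1 fit, 6 with limma at either pseudocount, and 6 to 10 when single libraries were left out. Scaling by library totals shifted the median log2 fold change of all genes to -0.103 in this comparison and to -0.078 in Mko-3 against controls. The number past both thresholds was 0 to 1 when single libraries were left out. In Mko-3 against control cells 1 gene was higher. This count was 2 with DESeq2, 2 without a filter on low counts, 2 with all 9 libraries in 1 fit, 2 with a replicate block, 0 with library totals, 0 with limma at either pseudocount, and 0 to 3 when single libraries were left out. The number passing was then 3 to 7, from 5. In that comparison FASN ranged from -0.152 to 0.137 (log2) and ELOVL6 from -0.0536 to 0.107 when single libraries were left out, and ELOVL6 was -0.0439 with library totals. FADS1, at -0.000963, was 0.0151 with DESeq2, 0.00623 with RLE size factors, 0.0319 without a filter, 0.00987 with all 9 libraries, 0.0141 and 0.0144 with limma, and -0.0587 to 0.0749 when single libraries were left out. Between the clones, none of the 10 changed sign under any alternative, and the number lower was 8 to 10. The causes were not tested.

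The replicate numbers were not taken as pairs, since libraries of the same number did not deviate together (correlations from -0.0855 to 0.0699). With a replicate block, FADS1 in Mko-3 against control cells was 0.00211, FASN passed in Ako-3 cells (0.28, edgeR adjusted p = 0.00934), ACLY did not (adjusted p = 0.0559), FADS2 passed in Mko-3 cells (0.20, adjusted p = 0.0176), and the other calls on the 10 genes did not change. FPKM listed per library carry the counting error of 390 to 77415 counts, which is smallest for SCD and largest for ACACB.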
